A study of Mus musculus with 16 samples.

Results

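Ccn2 and 6 other genes that are widely used as readouts of the co-activator YAP or of the growth factor TGF-beta were followed through 8 mouse tissues under feeding and fasting. The members are Ccn1 and Ccn2 (older names Cyr61 and Ctgf), Thbs1, Ankrd1, Amotl2, Lox and Loxl1, that is 7 of the 55385 genes in the count table. They were taken by symbol from a list selected on their difference between fasting and fed libraries in these same data, so that difference is described below without a test. Male C57BL/6 wild-type mice, bought at 12 weeks of age, either ate freely (Fed) or went without food for 24 h (Fasting). Muscle, Liver, White_Adipose, Brown_Adipose, Heart, Spleen, Kidney and Lung were taken from 3 mice per treatment, and equal amounts of tissue from those 3 mice were combined before RNA extraction. Each tissue and treatment therefore has 1 short-read RNA-Seq library, 16 in all, and all 8 tissues come from the same pair of mouse pools. Library totals ran from 14245178 counts (fasting brown adipose) to 36069968 counts (fasting lung). For each tissue label, the sum of 5 to 8 marker genes of that tissue was highest in its own libraries. The level of a gene is given as CPM, its count scaled to the total count of its library, or as TPM, which also corrects for the length of the gene, where different genes are compared.

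YAP and its paralog TAZ are held in the cytoplasm by the Hippo kinases. When released, for example by stretch or spreading of the cell, they enter the nucleus, bind the TEAD transcription factors and switch on genes that include Ccn1, Ccn2, Ankrd1 and Amotl2. TGF-beta signals through receptor kinases and SMAD factors, and in fibroblasts and other stromal cells it drives genes of the extracellular matrix, among them Ccn2, Thbs1 and the lysyl oxidases. CCN1 and CCN2 are secreted proteins that bind integrins and growth factors in the matrix. Thrombospondin 1, the product of Thbs1, is a secreted glycoprotein that can free TGF-beta from its latent complex. ANKRD1 (CARP) is a nuclear and sarcomeric ankyrin repeat protein of striated muscle that is known as a marker of load on the heart. AMOTL2 is a motin, a junctional scaffold that binds YAP and restrains it. LOX and LOXL1 are copper enzymes that crosslink collagen and elastin, and LOXL1 is known above all for elastic fibers.

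Since YAP acts through TEAD, the bases just before the start site are shown for the 3 members that matched the promoter table, from RefSeq on build GRCm38.p6. Each run gives the 250 bases before the RefSeq start site, 5′ to 3′ on the strand of the gene. This start can differ from that of the GENCODE annotation used for the counts. The Amotl2 and Ankrd1 windows lie inside the GENCODE spans of these genes given below. The capitals mark the letters CATTCC, the core bound by TEAD factors, or GGAATG, the same core read on the other strand.
Ccn1 promoter, chr3:145649986-145650235, minus strand: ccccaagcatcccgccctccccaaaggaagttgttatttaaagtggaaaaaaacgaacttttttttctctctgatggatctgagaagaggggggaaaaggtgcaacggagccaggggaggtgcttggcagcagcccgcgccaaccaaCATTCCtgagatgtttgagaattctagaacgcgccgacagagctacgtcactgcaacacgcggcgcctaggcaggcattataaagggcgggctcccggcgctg
Amotl2 promoter, chr9:102717554-102717803, plus strand: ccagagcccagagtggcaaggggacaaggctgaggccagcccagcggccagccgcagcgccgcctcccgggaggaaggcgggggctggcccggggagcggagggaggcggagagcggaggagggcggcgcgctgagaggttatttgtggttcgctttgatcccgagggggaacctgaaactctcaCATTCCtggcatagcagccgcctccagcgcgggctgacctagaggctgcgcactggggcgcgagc
Ankrd1 promoter, chr19:36119845-36120094, minus strand: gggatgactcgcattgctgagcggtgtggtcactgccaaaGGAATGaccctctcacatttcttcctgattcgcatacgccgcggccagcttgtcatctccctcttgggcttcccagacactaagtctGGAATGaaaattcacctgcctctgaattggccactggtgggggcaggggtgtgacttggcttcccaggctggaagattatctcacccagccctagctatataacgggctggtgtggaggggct
The Ccn1 window holds the letters once, 103 to 98 bases before the start, and the Amotl2 window once, 65 to 60 bases before it. The Ankrd1 window holds them at 210 to 205 and at 123 to 118 bases before the start, both times as GGAATG. These letters stand in 12.6% of all 32851 promoter windows of the same length. The SMAD letters CAGACA, or TGTCTG on the other strand, were found in the Ankrd1 window 137 to 132 bases before the start and stand in 17.1% of all windows. Neither the AP-1 letters TGAGTCA or TGACTCA, present in 4.46% of windows, nor the CArG box of the serum response factor, present in 1.47%, were found in these 3 windows. A match is a run of letters and not a measured binding site.

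On build GRCm38 and the GENCODE annotation that the counts use, Ccn1 is ENSMUSG00000028195, chr3:145646976-145649981, minus strand, and Ccn2 is ENSMUSG00000019997, chr10:24595442-24598683, plus strand. Thbs1 is ENSMUSG00000040152, chr2:118111876-118127133, plus strand. Ankrd1 is ENSMUSG00000024803, chr19:36111961-36120099, minus strand, and Amotl2 is ENSMUSG00000032531, chr9:102716672-102733418, plus strand. Lox is ENSMUSG00000024529, chr18:52516067-52529867, minus strand, and Loxl1 is ENSMUSG00000032334, chr9:58287738-58313186, minus strand. The counts of a gene are taken over its exons. Exons of Ccn2 share 1164 bases with Gm15270 on the opposite strand, a gene with 498 counts over all 16 libraries and at most 3.72 CPM. Thbs1 shares 297 bases with Gm29233 (21 counts) and Lox 60 bases with AC161119.1 (29 counts), both on the opposite strand. The libraries are strand-specific, but the strand setting of the counting is not given in the sources used here.

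Comparing the treatments gave 56 values, 7 genes in 8 tissues. A value was called past the fold threshold, the size used in the study, when the log2 fold change of fasting against fed, log2((CPM fasting + 0.01)/(CPM fed + 0.01)), was above 0.5 in size and at least 1 CPM was reached in 1 of the 2 libraries. Ankrd1 in liver, white adipose and brown adipose and Lox in liver stayed under 1 CPM in both libraries, and the other 52 values passed. Of these 52, 24 were higher in fasting, 11 were lower and 17 lay within the threshold. Intervals are exact conditional binomial 95% intervals of the count ratio and cover counting error only, because no tissue has a replicate library.

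The heart had 5 of 7 members higher (Ccn1, Ccn2, Ankrd1, Thbs1, Lox) and 0 lower, where 10.1% of all genes at 1 CPM were higher and 14.8% lower. In muscle 4 of 7 members were higher and 1 lower, beside 9.39% and 20.3% of all genes. White adipose had 4 of 6 passing members higher and 2 lower, beside 22.5% and 10.9%. Brown adipose had 3 of 6 higher and 2 lower, beside 12.3% and 17.8%. Kidney had 3 of 7 higher and 0 lower, beside 6.56% and 9.08%. In lung 2 of 7 were higher and 3 lower, beside 5.27% and 12.3%. In spleen 2 of 7 were higher and 2 lower, beside 5.99% and 4.47%. Liver had 1 of 5 passing members higher and 1 lower, beside 9.32% and 19.7%. The members were picked on this contrast, so nothing is read from their counts against those shares. The plot of log2 fold changes shows the pattern gene by gene.

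**Figure D1:**
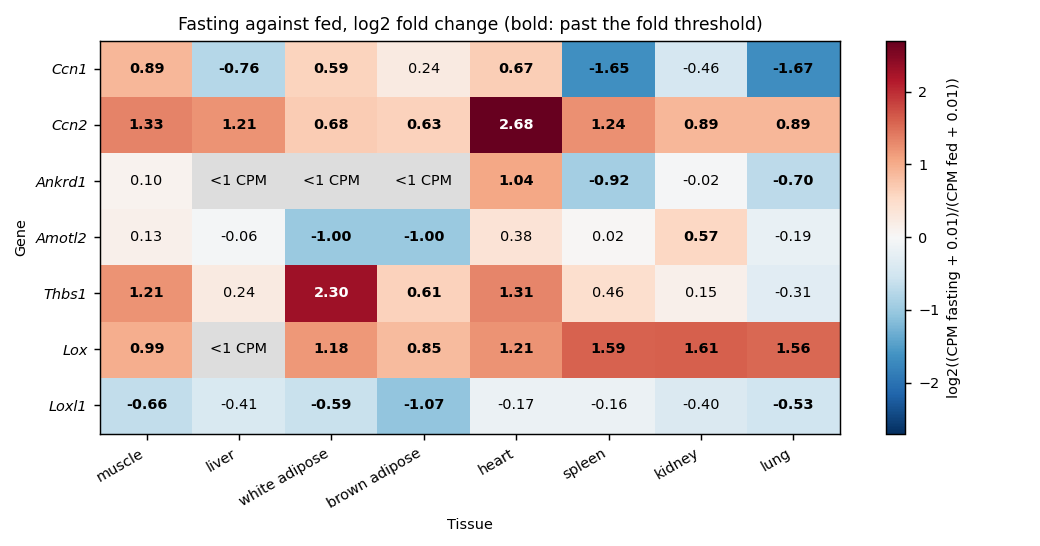
Log2 fold change of fasting against fed for the 7 members (rows) in the 8 tissues (columns), 1 library per treatment, with bold values past the fold threshold and grey cells under 1 CPM in both libraries. The Ccn2 row runs from 0.63 to 2.68, the Loxl1 row from -1.07 to -0.16, and the Ccn1 row changes sign between tissues.

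Among the CCN proteins and thrombospondin, Ccn2 was higher past the threshold in the fasting library of all 8 tissues. In heart it stood at 60.8 CPM fed and 390 CPM fasting, a 6.41-fold difference (log2 2.68, interval 2.58 to 2.78). Muscle went from 16.03 to 40.4 CPM, spleen from 36.9 to 87.3 CPM and liver from 6.73 to 15.6 CPM. These are 2.52-fold, 2.37-fold and 2.32-fold differences. Kidney went from 74.7 to 139 CPM and lung from 108 to 200 CPM, 1.86-fold and 1.85-fold. The smallest differences were in the adipose tissues, with 38.9 and 62.5 CPM in white adipose (log2 0.68) and 4.28 and 6.60 CPM in brown adipose (log2 0.63, interval 0.17 to 1.09). The brown adipose value rests on 71 and 94 counts, the fewest of any Ccn2 value. The fasting heart library also had the highest Ccn2 level of the 16. Beside it, the sum of 8 fibroblast markers in heart was 999 CPM fed and 1043 CPM fasting, with 3 markers higher and 5 lower, and the sum of 8 smooth muscle markers was 2222 and 2690 CPM, with 3 higher and 5 lower. Most of that sum was Des (1841 and 2452 CPM), which heart muscle cells express as well. The part of these lists in the Ccn2 value was not tested. With bulk tissue, fewer cells of a type and less RNA per cell cannot be told apart.

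Ccn1, the nearest relative of Ccn2 among the members, did not follow it. It was higher past the threshold in muscle, heart and white adipose, where Ccn2 was higher too. Muscle stood at 20.9 CPM fed and 38.9 CPM fasting (log2 0.89), heart at 70.2 and 112 CPM (log2 0.67) and white adipose at 31.0 and 46.8 CPM (log2 0.59). It was lower in lung, spleen and liver. Lung stood at 217 CPM fed and 68.3 CPM fasting (log2 -1.67, interval -1.74 to -1.60), spleen at 21.3 and 6.75 CPM (log2 -1.65, interval -1.91 to -1.41) and liver at 12.6 and 7.41 CPM (log2 -0.76). In these 3 tissues Ccn2 lay on the other side. Brown adipose, at 20.7 and 24.4 CPM, and kidney, at 31.4 and 22.9 CPM, stayed within the threshold. The white adipose value left the threshold under TMM factors (log2 0.47). In spleen the smooth muscle sum was 401 CPM fed and 275 CPM fasting with 7 of 8 markers lower, while the fibroblast sum was 283 and 404 CPM, most of that gap from Pdgfra at 68.4 and 194 CPM. In lung the fibroblast sum was 1311 and 1357 CPM and the endothelial sum 3919 and 3696 CPM, while the sum of 6 B-cell genes went from 368 to 186 CPM and the list of heart markers from 1099 to 561 CPM. The part of these marker lists in the Ccn1 values was not tested.

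The ratio of Ccn2 to Ccn1 within a library, on the TPM scale, was higher in the fasting library of all 8 tissues. It was 1.22 fed and 9.12 fasting in spleen and 0.351 and 2.07 in lung. In heart it was 0.612 and 2.46, and in liver 0.377 and 1.48. White adipose had the smallest shift, from 0.883 to 0.941. The ratio does not depend on the library total, since both genes share it.

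Thbs1 reached its highest level in the fasting white adipose library, with 236 CPM fed and 1158 CPM fasting, a 4.92-fold difference (log2 2.30, interval 2.26 to 2.34). Among the fed libraries lung was higher, at 336 CPM. It was also higher past the threshold in heart (29.3 and 72.6 CPM, log2 1.31), muscle (26.7 and 61.8 CPM, log2 1.21) and brown adipose (24.4 and 37.3 CPM, log2 0.61). Spleen, with 64.6 and 89.1 CPM, came just under the threshold at 0.46. Kidney (126 and 140 CPM) and liver (3.39 and 4.01 CPM) differed less. Lung was the tissue with a log2 fold change below 0, at 336 and 270 CPM (-0.31). Platelets and megakaryocytes carry Thbs1. The sum of 6 platelet markers in white adipose was 35.3 CPM fed and 29.3 CPM fasting, with Pf4 at 30.1 and 20.8 CPM and Gp1ba at 0 and 0.036 CPM. Of the 6 markers 4 were above their fed level and 2 below it. Among those above were Itga2b at 3.35 and 5.94 CPM and Ppbp at 1.25 and 1.86 CPM. In heart the platelet sum was 20.4 and 25.7 CPM, with 5 markers higher and 1 lower. Ppbp stood at 4.88 and 8.52 CPM there, Itga2b at 3.89 and 6.49 CPM and Pf4 at 10.4 and 8.91 CPM. The part of the platelet markers in the Thbs1 values was not tested. In white adipose the fibroblast sum was 2296 and 2585 CPM, the macrophage sum 925 and 915 CPM and the mesothelial sum 340 and 391.6 CPM. The B-cell list of the spleen stood at 346 CPM fed and 82.9 CPM fasting in white adipose, nearly all of it Ighm (338 and 76.3 CPM), and its part in the adipose values was not tested.

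**Figure D2:**
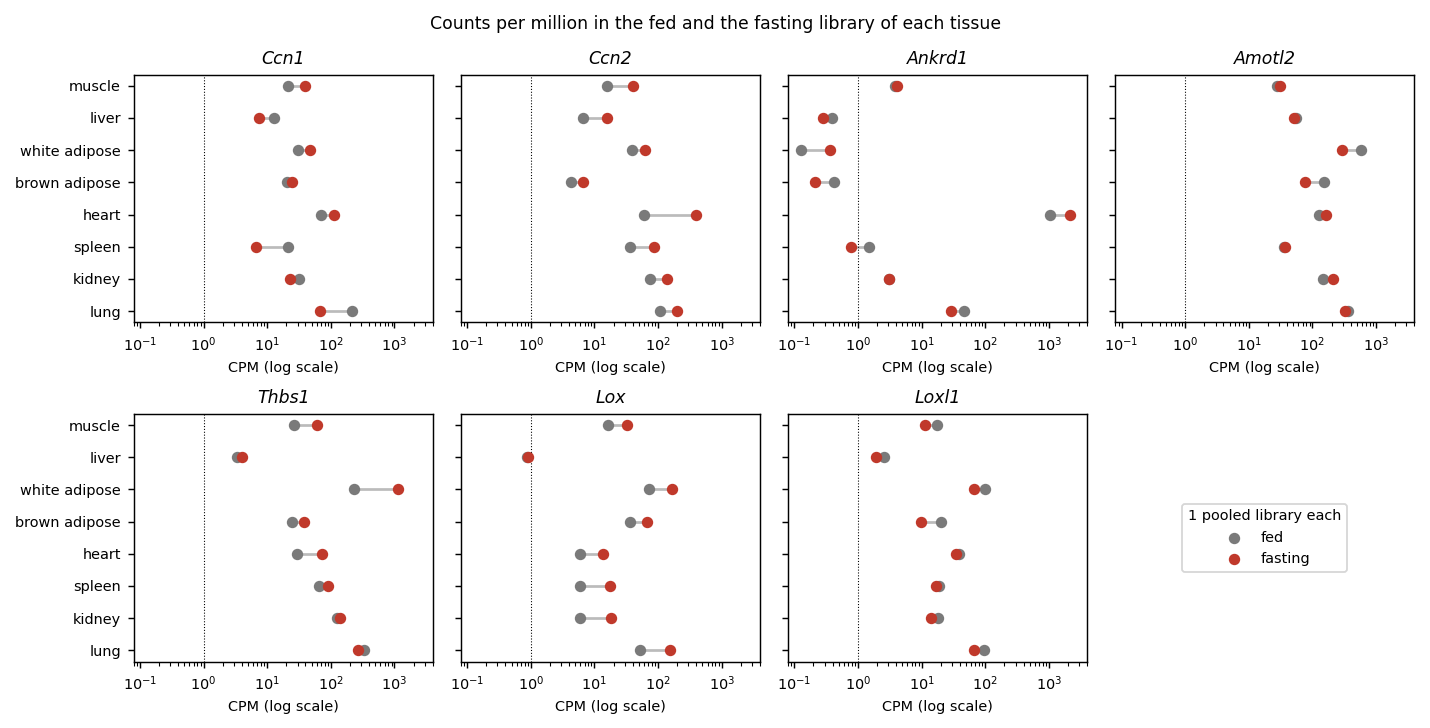
Level of each member in CPM (log axis) in the fed (grey) and the fasting (red) library of each tissue, 1 pooled library per point, with the dotted line at 1 CPM. Ccn2 and Lox have the red point to the right in each tissue, Loxl1 has it to the left, and Ankrd1 in heart (1025 and 2111 CPM) stands far above its other tissues.

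Of the members that act in the nucleus or at junctions, Ankrd1 was in large part a heart transcript here. The heart had 1025 CPM fed and 2111 CPM fasting (log2 1.04, interval 1.02 to 1.07), that is 1124 and 2313 TPM. On the same TPM scale Ccn2 reached 67.3 and 431 TPM in these libraries. In lung Ankrd1 went the other way, from 46.6 to 28.7 CPM (log2 -0.70, interval -0.82 to -0.58). The lung libraries also hold transcripts of cardiac muscle. Their sum over 7 heart markers was 1099 CPM fed and 561 CPM fasting, with 6 of 7 lower, among them Myh6 at 529 and 326 CPM and Actc1 at 127 and 72.8 CPM. The log2 ratio of those sums was -0.97, and its part in the Ankrd1 value was not tested. Spleen, at 1.501 and 0.79 CPM, passed as lower (log2 -0.92) on only 34 and 22 counts. That call was lost with a pseudocount of 1 CPM (log2 -0.48), with Fisher's exact test added, and on TMM-scaled libraries, where both values lay under 1 CPM (0.98 and 0.52). Muscle had 3.78 and 4.04 CPM and kidney 3.07 and 3.03 CPM, with log2 fold changes of 0.10 and -0.02. In liver, white adipose and brown adipose the counts lay between 3 and 10, too few to show a difference.

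Amotl2 was lower past the threshold in both adipose tissues and higher past it in kidney. White adipose stood at 573 CPM fed and 286 CPM fasting (log2 -1.0, interval -1.04 to -0.96) and brown adipose at 150 and 75.5 CPM (log2 -1.0, interval -1.10 to -0.89). Kidney had 144 and 214 CPM (log2 0.57). Heart had 125 and 163 CPM (log2 0.38). Lung, at 365 and 319 CPM, muscle, at 28.1 and 30.8 CPM, liver, at 54.2 and 52.0 CPM, and spleen, at 36.03 and 36.6 CPM, lay within 0.20 of no difference on the log2 scale. The endothelial sum, a cell type known for Amotl2, was 1454 and 1285 CPM in white adipose and 1191 and 1215 CPM in brown adipose. The brown adipose libraries carry skeletal muscle transcripts as well, with a sum over 8 muscle markers of 2624 CPM fed and 1167 CPM fasting, and its part in the brown adipose values was not tested.

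The 2 crosslinking enzymes moved apart. Lox was higher past the threshold in all 7 tissues where it reached 1 CPM. Lung stood at 51.8 CPM fed and 152 CPM fasting (log2 1.56, interval 1.48 to 1.64), kidney at 6.01 and 18.4 CPM (log2 1.61) and spleen at 5.92 and 17.8 CPM (log2 1.59). These are about 3-fold differences, from 2.94-fold to 3.06-fold. White adipose had the highest level, with 72.5 and 164 CPM (log2 1.18). Heart had 5.87 and 13.6 CPM (log2 1.21), muscle 16.6 and 32.9 CPM (log2 0.99) and brown adipose 36.8 and 66.5 CPM (log2 0.85). Liver held 20 and 23 counts, 0.87 and 0.92 CPM. Beside the Lox value of spleen the fibroblast sum there had a log2 ratio of 0.51, with Pdgfra at 68.4 and 194 CPM while 5 of the 8 markers were lower, and in the other 7 tissues that ratio lay between -0.17 and 0.17. Its part in the spleen value was not tested.

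Loxl1 was below its fed level in the fasting library of all 8 tissues and passed the threshold in 4. Brown adipose stood at 20.4 CPM fed and 9.69 CPM fasting (log2 -1.07, interval -1.37 to -0.79), muscle at 17.8 and 11.2 CPM (log2 -0.66), white adipose at 100.2 and 66.4 CPM (log2 -0.59) and lung at 96.0 and 66.5 CPM (log2 -0.53). In brown adipose 7 of the 8 fibroblast markers were lower too, among them Col6a3 (179 and 78.3 CPM), with a median log2 fold change of -0.26. In muscle 6 of the 8 were lower, among them Col6a3 (141 and 64.6 CPM), with a median of -0.31. White adipose and lung each had 4 higher and 4 lower. The part of these markers in the Loxl1 values was not tested. The lung value is the one nearest to the threshold and left it under TMM factors (log2 -0.45). Kidney (18.3 and 13.9 CPM), liver (2.56 and 1.92 CPM), heart (38.7 and 34.5 CPM) and spleen (19.1 and 17.1 CPM) stayed within it, and the counting interval included 0 in liver, heart and spleen.

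The Lox to Loxl1 ratio on the TPM scale joins these changes. It was higher in the fasting library of all 8 tissues, by 1.41-fold in liver to 4.25-fold in lung. The liver value rests on 20 and 23 counts of Lox, under 1 CPM, and on Loxl1 values whose interval includes 0. Lung went from 0.372 to 1.58, kidney from 0.227 to 0.914 and brown adipose from 1.24 to 4.74. White adipose went from 0.499 to 1.70 and muscle from 0.643 to 2.02. In lung, white adipose and muscle Loxl1 was thus the more abundant of the pair in the fed library and Lox in the fasting library. In heart, with 0.104 and 0.272, and in liver, spleen and kidney Loxl1 stayed the more abundant in both.

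**Figure D3:**
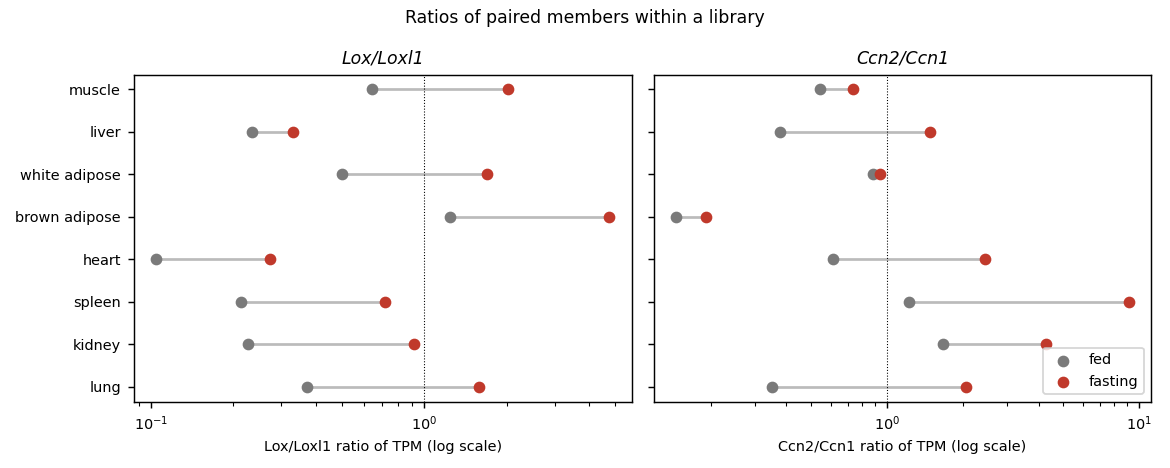
Ratio of TPM of Lox to Loxl1 (left) and of Ccn2 to Ccn1 (right) on a log axis, in the fed (grey) and the fasting (red) library of each tissue, with the dotted line at equal levels. Each of the 16 pairs has the fasting point to the right, from a 1.07-fold shift (Ccn2 to Ccn1, white adipose) to a 7.46-fold shift (Ccn2 to Ccn1, spleen).

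Loxl1 in lung (-0.53) and Amotl2 in kidney (0.57) lay just past the fold threshold of 0.5, and just short of it lay Thbs1 in spleen (0.46) and Ccn1 in kidney (-0.46). Scaling matters at this edge. TMM factors moved all genes by 0.13 in liver and by -0.12 in white adipose on the log2 scale, relative to library totals, and by less than 0.1 in each other tissue. With them Ccn2 stayed higher past the threshold in 8 of 8 tissues, Lox in 7 of 7 and Loxl1 below 0 in 8 of 8. Amotl2 in liver (-0.06 to 0.07) and Ankrd1 in kidney (-0.02 to 0.03) changed sign within the threshold.

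Levels differed between tissues for each member, and this was not used to choose them. In an edgeR quasi-likelihood test of the 7 tissue terms over all 16 libraries, with treatment as a covariate, 7 of 7 members were called, beside 93.6% of the 23580 genes tested. The Benjamini-Hochberg adjusted p of edgeR ran from 7.9e-10 for Ankrd1 to 0.0011 for Ccn1. For this comparison levels are given as CPM on TMM-scaled library sizes, as the geometric mean of the fed and the fasting library, because the composition of RNA differs between tissues. The test sets tissues against the spread that fasting and the pools leave within a tissue, not against mouse-to-mouse spread. All tissues come from the same pools.

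Ankrd1 had the steepest order. Its heart level, 1647 CPM on this scale, exceeded that of lung, the next tissue at 25.0 CPM, by 6.10 on the log2 scale (edgeR adjusted p = 8.2e-07). Lung, muscle (7.25 CPM) and kidney (2.90 CPM) each differed from the next tissue down, which for kidney was spleen (0.72 CPM, edgeR adjusted p from 0.0017 to 0.017). From spleen down, liver, brown adipose and white adipose, all under 1 CPM, did not differ from the tissue before them beyond the spread. On library totals, the sum of the 7 heart markers was 58285 CPM fed and 52539 CPM fasting in heart. It was 1099 and 561 CPM in lung, 318 and 258 CPM in muscle, 44.7 and 42.3 CPM in kidney and 46.9 and 41.8 CPM in spleen. The part of heart transcripts in this order of Ankrd1 was not tested. Ccn2 was highest in heart (172 CPM), ahead of lung (100.4 CPM) by 0.96 on the log2 scale, which missed the threshold (edgeR adjusted p = 0.059). Lung and kidney (96.7 CPM) did not differ beyond the spread, and kidney exceeded muscle by 1.03 on the log2 scale (edgeR adjusted p = 0.046). The libraries of kidney and muscle overlapped, with fasting muscle (77.2 CPM) above fed kidney (69.7 CPM), though kidney was higher within each treatment. Neither muscle (47.3 CPM) and spleen (37.3 CPM) nor spleen and white adipose (36.6 CPM) differed beyond the spread. Liver (16.1 CPM) and brown adipose (5.14 CPM) were each below the tissue before them (edgeR adjusted p = 0.025 and 0.010). For Ccn1, from heart (99.1 CPM), lung (83.1 CPM) and muscle (52.9 CPM) down to spleen (7.89 CPM), no neighbouring pair differed. On plain library totals lung, not heart, had the highest mean Ccn1 level (143 CPM).

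The other 4 members were highest in white adipose with lung next, and for none of them did these tissues differ beyond the spread. Thbs1 had 388 CPM in white adipose and 205 CPM in lung, Lox 80.9 and 60.6 CPM, Loxl1 60.6 and 54.5 CPM and Amotl2 301 and 233 CPM. At the low end Thbs1, Lox and Loxl1 were lowest in liver, with 5.78, 1.40 and 3.48 CPM, below the tissue before it by 2.34, 2.33 and 1.79 on the log2 scale (edgeR adjusted p = 0.0027, 6.8e-05 and 4.2e-05). Amotl2 was lowest in spleen, at 23.9 CPM, below muscle (edgeR adjusted p = 0.016). Lox also had a step from muscle (43.3 CPM) to heart (10.01 CPM), of 2.11 on the log2 scale (edgeR adjusted p = 1.3e-04), and Loxl1 stepped down from heart to muscle and from muscle to kidney (edgeR adjusted p = 0.032 and 0.0075). Of the 49 pairs of neighbouring tissues 14 differed and in 28 the libraries overlapped. Over all 28 pairs of tissues 50.8% of the gene tests were called, a share that includes distant tissues and is no yardstick for neighbours. A share of all genes between neighbouring tissues is not at hand, so nothing is read from the member counts.

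The other genes of both pathways were read from 5 lists of 85 genes in all, without the members. They were tested in the same edgeR model, with fasting as the term and tissue as a block, where 1.03% of the 23580 genes were higher and 0.84% lower across tissues. Of these 85 genes 84 were tested, and 2 were called, both lower. At an unadjusted p under 0.05, 9 were higher and 15 lower, beside 8.37% and 10.3% of all genes tested. DESeq2 called 5 higher and 10 lower, beside 5.2% and 6.09% of the 16234 genes to which it gave an adjusted p. These shares hold for the counts of each list that follow. Both genes called by edgeR are fibrillar collagen genes from the list of 20 TGF-beta targets, which had 2 higher and 7 lower at an unadjusted p under 0.05, 1 higher and 6 lower under DESeq2 and a median of -0.11. Col3a1 was lower in 8 of 8 tissues, with a log2 fold change of -1.11 ± 0.08 (SE, edgeR adjusted p = 8.6e-04), for example 2482 and 1399 CPM in white adipose and 684 and 359 CPM in lung. Col1a1 had -0.64 ± 0.11 (SE, edgeR adjusted p = 0.022) and was lower in 7 of 8 tissues, with white adipose the exception at 533 and 626 CPM. The Col3a1 call held with each tissue left out in turn. That of Col1a1 was lost in 5 of these 8 fits (edgeR adjusted p from 0.0011 to 0.069), with its log2 fold change between -0.75 and -0.60 in all 8.

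None of the 18 other YAP targets was called by edgeR, with 3 higher and 1 lower at an unadjusted p under 0.05. DESeq2 called 2 higher and 0 lower. Those 2 were Igfbp3, with 0.72 ± 0.23 (SE) in the edgeR fit, and Crim1, with 0.30 ± 0.07 (SE). The most abundant of the 18, Ccdc80, a matrix protein of adipose tissue, had -0.14 ± 0.12 (SE) and the receptor kinase Axl 0.02 ± 0.08 (SE). The median log2 fold change of the list was -0.01, as over all genes tested. None of the 19 genes of the Hippo kinases, YAP, TAZ and TEAD was called, with 1 higher and 2 lower at an unadjusted p under 0.05, and 1 higher (Tead2) and 2 lower (Mob1b and Vgll4) under DESeq2. Among them the motin Amotl1 had -0.10 ± 0.12 (SE) and the kinase adaptor Mob1a -0.15 ± 0.07 (SE), and the median was 0.00. Past the fold threshold within a tissue, 5 of the 19 were higher and 0 lower in white adipose, where 22.5% and 10.9% of all genes were. The same rule gave 4 lower of 18 in muscle, 4 lower of 18 in brown adipose and 3 lower of 17 in liver, where 20.3%, 17.8% and 19.7% of all genes were lower. In each of these tissues 1 gene of the list was higher, where 9.39%, 12.3% and 9.32% of all genes were. Wwc1, a scaffold that activates the Hippo kinases, had 3.09 CPM fed and 68.0 CPM fasting in white adipose. It was past the threshold in heart (log2 1.48), kidney (log2 0.50) and liver (log2 -0.60) too, with 0.64 ± 0.52 (SE) across tissues. Tead1 had 117 and 343 CPM in white adipose, and was past the threshold in brown adipose (log2 1.78), liver (log2 0.54) and muscle (log2 -0.94) too. None of the 19 TGF-beta ligands, receptors, latent binding proteins and SMADs was called, with 2 higher and 2 lower at an unadjusted p under 0.05, and 1 higher (Tgfbr3) and 1 lower (Smad2) under DESeq2. The type II receptor Tgfbr2 had 0.03 ± 0.08 (SE) and the latent binding protein Ltbp4 -0.09 ± 0.07 (SE), with a median of -0.02 over the list.

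**Figure D4:**
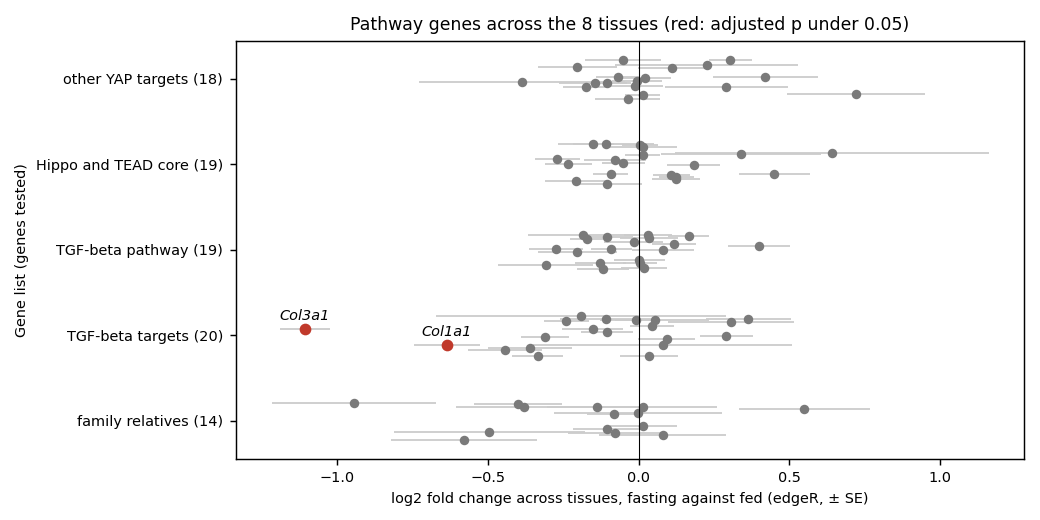
Log2 fold change of fasting against fed across the 8 tissues from edgeR, with its SE as bars, for the genes tested in 5 pathway lists that leave out the members. The 2 genes in red passed an adjusted p of 0.05 (Col1a1 at -0.64 and Col3a1 at -1.11), and both stand in the list of TGF-beta targets.

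No close relative of the members was called by edgeR over all 8 tissues (Ccn4 was lower in the fit without white adipose, log2 -1.21, edgeR adjusted p = 0.012), with 1 higher and 3 lower of 14 tested at an unadjusted p under 0.05 and 1 lower under DESeq2 (Ccn4). Their values can be set beside those of the members. Thbs2, the nearest paralog of Thbs1, stood at 66.2 CPM fed and 318 CPM fasting in white adipose (log2 2.26), beside 2.30 for Thbs1, and had 0.55 ± 0.22 (SE) across tissues. Where Thbs1 was also past the threshold, Thbs2 had log2 0.73 in heart, 0.67 in brown adipose and -0.08 in muscle. Thbs3 had -0.08 ± 0.16 (SE). Loxl2, a further lysyl oxidase, had -0.40 ± 0.15 (SE), with 45.3 and 39.9 CPM in white adipose and 17.0 and 9.21 CPM in muscle. Amotl1 in brown adipose stood at 281 and 174 CPM (log2 -0.69), where Amotl2 had -1.0, and Amot across tissues had 0.02 ± 0.11 (SE). Ankrd23, a muscle relative of Ankrd1, had 34.9 and 24.7 CPM in heart (log2 -0.50), where Ankrd1 had 1.04.

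The genes most like Ccn2 in their 8 fasting log2 fold changes, here with a pseudocount of 1 CPM, by Pearson correlation among 10792 genes with at least 1 CPM in all 16 libraries, were Tspyl1 (r = 0.95), Prpf31 (0.94), Eral1 (0.94), Slmap (0.93) and Plod3 (0.93). Each had its highest value in heart, but the values were small, for example 0.47 for Tspyl1 and 0.55 for Slmap with the pseudocount of 0.01 CPM used elsewhere. The correlation follows the pattern between tissues and not the sign. Prpf31 (0.08) and Plod3 (0.29) were above 0 in heart alone and below 0 in each other tissue. Eral1 was above 0 only in heart (0.29) and muscle (0.04). Those most like Ankrd1 were Tnfrsf12a (r = 0.92), Gm45222 (0.92), Uvrag (0.92), Rrp7a (0.92) and Gm28791 (0.91). For Ankrd1, 3 of the 8 points (liver and both adipose tissues) rest on 3 to 10 counts. Tnfrsf12a, the receptor of the cytokine TWEAK, had 0.94 in heart, -0.69 in spleen and -0.69 in lung. Gm28791 was above 0 in heart alone (0.09). By level over the 16 libraries, Ankrd1 was closest to Tnnt2 (r = 0.98), Kcnj3 (0.98) and Mybpc3 (0.98), 3 genes of heart muscle, and Ccn2 to 2010111I01Rik (0.91), Rasl11b (0.90) and Susd6 (0.90). These are best matches out of many genes over few points that share pools and libraries, and are given as a description.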

How the data were processed

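Short-read RNA-Seq of 8 tissues under 2 treatments gave 16 libraries, each from tissue of 3 pooled mice. Per the paper's methods and the submitters' processing notes, the authors made stranded libraries and read 100 bp from both ends. fastp 0.23.2 served for trimming, FastQC 0.11.8 for quality control, HISAT2 2.2.1.0 for alignment on GRCm38, and featureCounts (Subread 2.0) for counting genes of mouse GENCODE release vM24. They deposited raw counts without normalization, together with the exon length of each gene, an other value used here for TPM. All 16 columns matched a label.

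Symbols came from mouse GENCODE release 21 by gene ID, and 55144 of 55385 genes matched. Library totals lay between 14245178 and 36069968 counts, so that 3 counts correspond to 0.0832 to 0.211 CPM. CPM, pseudocount (0.01) and fold threshold (0.5 on the log2 scale) follow the study. The study's Fisher's exact test compares the reads of 2 libraries and was kept as an alternative.

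Counts were fitted with edgeR 4.0.16 (R 4.3.3) with terms for tissue and treatment, TMM, filterByExpr, the quasi-likelihood test and Benjamini-Hochberg adjustment over 23580 genes. The fit had 7 residual degrees of freedom and a common coefficient of variation of 0.219. DESeq2 1.42.0 was an alternative. Tested on simulated data, the treatment term recovered 144 of 193 genes changed by 1.5 on the log2 scale, with 17 false calls among 22947, and the tissue term called 7 of 181 flat genes. The 8 tissues share 2 mouse pools, so p-values measure spread between tissues and not between mice. Remaining steps ran in Python 3.11.15 with numpy 2.4.6, pandas 2.3.3, scipy 1.17.1 and matplotlib 3.10.9.

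The members and the gene lists were chosen with earlier results of these data known. A gene of the TGF-beta target list is not reported here, and no count over the lists includes it. Genes named from a pathway list were those called by edgeR, or else the 2 with the largest mean CPM. Relatives were named when they reached 10 CPM, up to 6. The most alike genes were the 5 by fasting response and the 3 by level. Genes named as called by DESeq2, the relative Ccn4, Fn1, Tead1, Wwc1 and some markers stand outside that rule and were named after their values were seen. The alternatives tried were other scalings, pseudocount, filters and thresholds, DESeq2, and each tissue left out.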

Additional observations from a re-analysis of the deposited data

Results flagged for a closer look

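The members below lay past the fold threshold upwards in at least 1 tissue and downwards in another. The difference between tissues was not tested, since each has 1 library per treatment and the members were selected on this contrast. For Ccn1 the log2 fold change of muscle (0.89) exceeded that of lung (-1.67) by 2.56. For Ankrd1 the value of heart (1.04) exceeded that of spleen (-0.92), which rests on 34 and 22 counts and is no call with a pseudocount of 1 CPM or TMM factors, by 1.96. For Amotl2 the value of kidney (0.57) exceeded that of white adipose (-1.0) by 1.57.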

How the results depend on the processing

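No paired analysis was possible because each tissue and treatment has 1 library and the labels give no replicate numbers that pair mice, beyond the pairing of fed and fasting by tissue that the edgeR model already holds. Of the 56 values, 24 were higher and 11 lower past the threshold. With a log2 threshold of 1 these counts were 13 and 4, and under the pseudocount of 1 CPM, TMM factors, DESeq2 size factors, library totals without the 10 highest genes, Fisher's exact test and no filter they were 23 to 25 and 9 to 12. No value past the threshold changed sign in any of these. All 7 members kept an adjusted p under 0.05 between tissues in each edgeR alternative and the DESeq2 likelihood ratio test. The number of neighbouring tissue pairs that differed was 14, 21 on library totals alone, and 7 to 15 with 1 tissue left out, which also removes its pairs. Of the pathway genes, edgeR called 0 higher and 2 lower (9 and 15 at an unadjusted p under 0.05), DESeq2's Wald test 5 and 10, edgeR on library totals alone 0 and 3 (with Fn1 lower, log2 -0.35, edgeR adjusted p = 0.029), and the fits without 1 tissue 0 to 1 higher and 1 to 4 lower. The cause of the gap between the tools was not tested. Without white adipose, Tgfbr3 was called higher, and Col1a1, Col1a2, Col3a1 and Ccn4 lower. Depth limits the Ankrd1 values of liver and the adipose tissues and the Lox value of liver, with 3 to 23 counts each.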
